A study of Mus musculus with 5 samples.

Results

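The enzymes of the urea cycle were followed in mouse liver on 5 oligonucleotide arrays, through every probe set annotated to Cps1, Otc, Ass1, Asl or Arg1 as its single gene symbol. A probe set is a group of short probes that together report 1 transcript. The rule found 6 of the 20380 probe sets with a single symbol, covering 4 of the 5 genes: 1 probe set each for Cps1, Asl and Arg1, and 3 for Otc. For Ass1, the only probe set carrying its symbol is also annotated to Gm5424, a transcribed pseudogene in RefSeq, so no value is given for Ass1.

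Every group consisted of C57B/L mice aged 8 weeks, acclimatised for 2 weeks before feeding began, and RNA from its pooled livers went onto 1 array. A pair of groups then received standard chow or an atherogenic diet for 1 week. The remaining 3 groups were fed for 10 weeks with standard chow, with the atherogenic diet, or with the atherogenic diet plus atorvastatin, a statin drug that blocks cholesterol synthesis, in the final 3 weeks. An atherogenic diet is a feed designed to raise blood cholesterol. Its composition and the number of livers per pool are not stated in the labels. The sample for 1 week of diet is called chow in its source name, whereas its title and protocols say atherogenic, and it was placed by its title. With 1 array per group the differences have no replicate check, no p-value was made, and the number of arrays limits the precision.

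The urea cycle turns ammonia, a toxic product of amino acid breakdown, into urea for excretion, and the complete cycle runs in hepatocytes. Carbamoyl phosphate synthetase 1 (Cps1) and ornithine transcarbamylase (Otc) work inside mitochondria. Argininosuccinate synthase (Ass1), argininosuccinate lyase (Asl) and arginase 1 (Arg1) then work in the cytosol, where arginase releases urea and returns ornithine. In liver these genes are most active in hepatocytes near the portal vein, and their RNA is known to respond to dietary protein, glucagon and glucocorticoids.

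Asl was the member that stood out, and it did so on 1 array. Its signal, a linear value that the authors computed per probe set, was 11297.9 on chow at 1 week and 12798.0 on the diet at 1 week. At 10 weeks it was 11767.8 on chow, 2947.0 on the diet and 7892.3 on the diet with atorvastatin. The 10-week diet array was thus the lowest, 2.68-fold below the next lowest, which was the atorvastatin array, while the remaining 3 arrays lay close together. Arg1 was also lowest on the 10-week diet array, but its highest value was on chow at 10 weeks. Cps1 and the brighter Otc probe sets varied by at most 1.42-fold over the 5 arrays. Signals under a floor of 138.8, the 40th percentile of all signals, were set to that floor, and a probe set counted as measured when at least 1 of the arrays compared lay above it. A ratio is given as log2 of the first array over the second, and 2-fold is the size used to count.

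**Figure D1:**
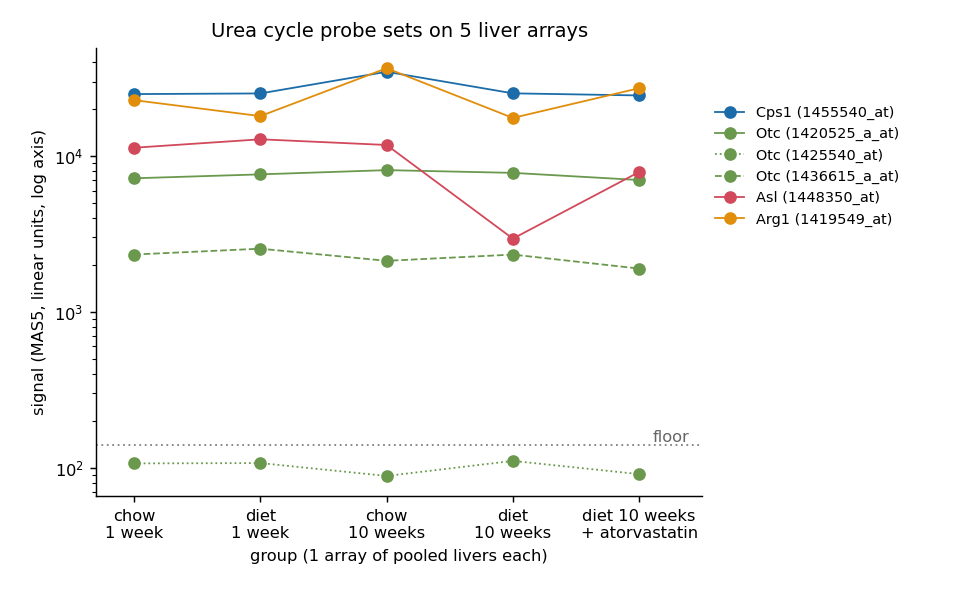
Signal (vertical axis, linear MAS5 units on a log axis) of the 6 urea cycle probe sets on each of the 5 arrays (horizontal axis, 1 array per group); lines join values of 1 probe set, and the dotted grey line is the floor of 138.8. Asl is lowest on the 10-week diet array at 2947.0 and intermediate with atorvastatin at 7892.3, while 1 Otc probe set lies below the floor on every array.

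A few properties of the arrays bear on these values. The hybridisation controls, bacterial and phage sequences added to each sample, had a geometric mean signal of 9075.8 on the 10-week chow array and between 1659.3 and 3364.8 on the others. The highest signal of any probe set was 73472.9 on that array against 34878.1 to 51284.7 elsewhere. Among the 204 probe sets in the brightest 1%, the median log2 ratio of the 10-week to the 1-week chow array was 0.38, against 0.01 over all measured probe sets. The 10-week chow array therefore ran high at the bright end, where Cps1 and Arg1 lie. For the diet at 10 weeks over 1 week the same median was 0.25, against 0.1 over all measured probe sets. Each 1-week array thus ran lower at the bright end than the 10-week array on the same feed. This difference also enters the ratios to chow at 1 week. The 18S ribosomal RNA control had a signal of 13944.1 on the atorvastatin array and 437.3 to 2185.0 on the others.

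The labelled tissue was checked through markers. All 8 hepatocyte markers with a probe set, among them albumin (Alb) and transthyretin (Ttr), were above the floor. Their summed signal was 368800.9 on chow at 10 weeks and 187014.5 to 282923.4 on the other arrays. The 9 Kupffer cell and macrophage markers summed to 8367.8 on chow at 10 weeks, 14807.0 on the diet at 10 weeks, 21251.4 with atorvastatin, and 13046.6 and 11713.5 on chow and diet at 1 week. The summed markers of endothelial cells were 2814.8 on chow at 10 weeks and 3540.8 to 4797.1 elsewhere. Markers of other cell types summed to 2880.3 to 3629.6 for stellate cells, 910.5 to 1629.7 for neutrophils, 840.4 to 1224.7 for lymphocytes, 338.2 to 635.9 for red blood cells and 883.1 to 1344.1 for pancreas and fat. Those of kidney and intestine summed to 3163.0 to 7349.0, with 3 of 6 above the floor. Most of that sum came from 1 gene, Fabp2, at 2562.3 to 6454.0. These sums moved in several comparisons, with and without the 10-week chow array. The median log2 ratio of the hepatocyte markers was -0.42 for diet over chow at 10 weeks, 0.81 between the chow arrays and 0.56 for the diet at 10 weeks over 1 week. That of the macrophage markers was 0.92 for diet over chow at 10 weeks and 0.35 for atorvastatin over the diet. Between the chow arrays it was -0.69, and for the 10-week diet over chow at 1 week it was 0.19. The part of either in the urea cycle values was not tested. In pooled tissue, fewer cells of a type and less RNA per cell cannot be told apart.

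The comparison of the diet with chow at 10 weeks asks what long feeding changes. Of the 5 member probe sets above the floor, 2 were lower by at least 2-fold, those of Asl and Arg1, and 0 were higher. Over all 13853 measured probe sets 7.07% were past 2-fold in either direction. The members' median log2 ratio was -0.46, beside 0.05 over all measured probe sets. It moved with the scaling and the reference, to -0.090 with quantile normalization, -0.23 with cyclic loess and -0.001 against the 1-week chow array.

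For Asl, which splits argininosuccinate into arginine and fumarate, the signal on the diet was 3.99-fold lower than on chow at 10 weeks (log2 ratio -2.0). Only 23 of the 13853 probe sets had a lower ratio in this comparison. Among the 1019 probe sets in the brightest 5%, where Asl lies and where 5.10% were past 2-fold, 3 had a lower ratio. With the 1-week chow array as the reference the log2 ratio of Asl was -1.94, since both chow arrays gave nearly the same Asl signal, 1.04-fold apart. Over the alternatives tried it ran from -2.0 to -1.77.

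For Arg1, the enzyme that releases urea, the signals were 22829.9 and 18031.9 on chow and diet at 1 week, and 36594.9, 17553.4 and 27232.2 on chow, diet and diet with atorvastatin at 10 weeks. The highest was chow at 10 weeks, and the 2 diet arrays without the drug were the lowest and lay 1.03-fold apart. The diet at 10 weeks was 2.08-fold below chow at 10 weeks (log2 ratio -1.06), just past 2-fold. Against the 1-week chow array it was -0.38, and against the mean of both chow arrays -0.72. Relative to the median of the brightest 1% of probe sets, which was itself at -0.23, it was -0.83, and with quantile normalization -0.59. Cyclic loess, a smoothing of the arrays against each other, gave -0.84. Arg1 was thus past 2-fold only against the 10-week chow array without such normalization, at each floor and with a pseudocount. The hepatocyte marker sum was highest on that same array, and its part in the Arg1 ratio was not tested.

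Cps1, the entry enzyme of the cycle, had signals of 24968.4 and 25208.2 on chow and diet at 1 week, and 34715.9, 25244.7 and 24472.1 on chow, diet and diet with atorvastatin at 10 weeks. At these signals the 10-week chow array was the highest and the other 4 lay within 1.03-fold. This depended on the scaling: with quantile normalization the log2 ratio of Cps1 was -0.21 for chow at 10 weeks over chow at 1 week, and -0.47 in place of 0.0021 for the diet at 10 weeks over 1 week. The log2 ratio of diet to chow at 10 weeks was -0.46, and it was 0.016 against the 1-week chow array and -0.090 with quantile normalization.

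Otc, which joins carbamoyl phosphate to ornithine, is read by 3 probe sets. The brightest gave 7191.9 and 7620.8 at 1 week and 8114.7, 7792.2 and 7008.9 at 10 weeks, in the order chow, diet, and diet with atorvastatin. This is a span of 1.16-fold, and only 1.3% of the 9910 probe sets above the floor on all arrays spanned as little or less. The second probe set gave 2330.2 and 2540.2 at 1 week and 2123.0, 2328.6 and 1893.8 at 10 weeks. The log2 ratios of diet to chow at 10 weeks were -0.058 and 0.13, so both gave values near 0 of opposite sign. Over the alternatives they ran from -0.058 to 0.17 and from -0.001 to 0.36, so neither kept its sign. The third ran from 88.3 to 110.3, below the floor on all 5 arrays, and gives no ratio.

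The span over the 5 arrays sets the members apart from one another. Asl spanned 4.34-fold, at least as much as 99% of the probe sets above the floor on all arrays, whose median span was 1.67-fold. Arg1 spanned 2.08-fold (79.1%), Cps1 1.42-fold (21.9%) and the second Otc probe set 1.34-fold (13.9%). These percentages are positions among probe sets of these arrays, and probe sets are not replicates.

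**Figure D2:**
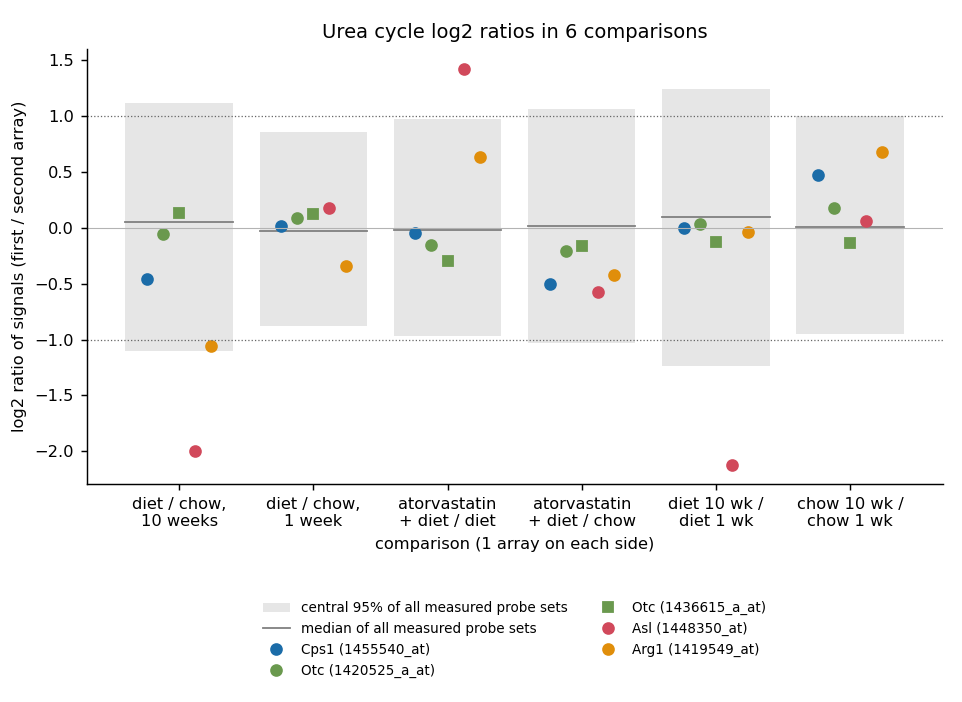
Log2 ratio of signals (vertical axis) of the 5 measured urea cycle probe sets in the 6 comparisons (horizontal axis, 1 array on each side); grey boxes span the central 95% of all measured probe sets, grey bars their median, and dotted lines mark 2-fold. Asl lies outside the box at -2.0, 1.42 and -2.12 in the 3 comparisons that use the 10-week diet array.

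After 1 week, the comparison asks what short feeding changes. Of the same 5 probe sets 0 were past 2-fold, where 2.94% of 13182 measured probe sets were. The members' median was 0.08, beside -0.03 over all. Asl had a log2 ratio of 0.18, with 3867 of 13182 probe sets higher. The Otc probe sets had 0.084 and 0.12, and Cps1 0.014. Arg1 had -0.34, with 2868 of 13182 probe sets lower. Asl was thus 1.13-fold higher on the diet at 1 week and 3.99-fold lower at 10 weeks; this difference between the feeding times was not tested.

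Atorvastatin on the diet was set against the diet alone. Here 1 of 5 member probe sets, that of Asl, was past 2-fold, where 4.49% of 13883 measured probe sets were. The members' median log2 ratio was -0.045, beside -0.02 over all. Asl was 2.68-fold higher with the drug (log2 ratio 1.42), and 72 of 13883 probe sets had a higher ratio. Arg1 was 1.55-fold higher (0.63), inside 2-fold, with 1115 probe sets higher. Cps1 had -0.045 and the Otc probe sets -0.15 and -0.30. The macrophage marker sum and the 18S control were also highest on the atorvastatin array, and their part in these ratios was not tested.

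Against chow at 10 weeks, the atorvastatin array had 0 of 5 member probe sets past 2-fold, where 5.90% of 13823 were. All 5 ratios were negative, with a median of -0.43, beside 0.02 over all. Relative to the brightest 1% of probe sets the second Otc probe set was at 0.046, above 0. Asl had -0.58, Cps1 -0.50, Arg1 -0.43 and the Otc probe sets -0.21 and -0.16. Set against chow at 1 week, a reference added later with the values known, Arg1 had 0.25, Cps1 -0.029 and Asl -0.52. This comparison shares the 10-week chow array with the diet comparison at 10 weeks. The comparison of the drug with the diet alone shares the 10-week diet array with it, so the low Asl signal of that array enters both of those ratios.

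**Figure D3:**
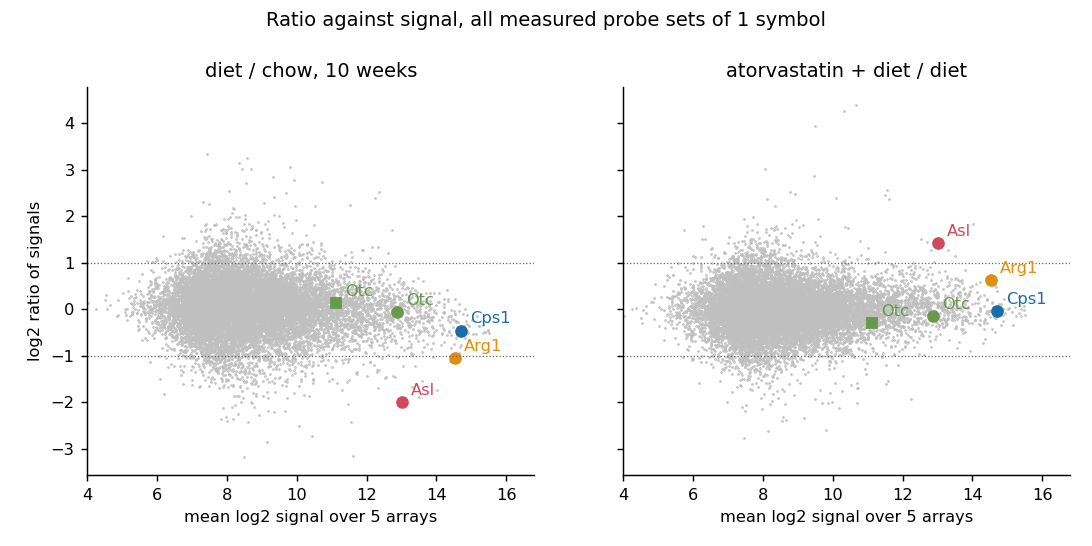
Log2 ratio (vertical axis) against the mean log2 signal over the 5 arrays (horizontal axis) for all measured probe sets of 1 symbol (grey) and the urea cycle members (coloured), for diet over chow at 10 weeks (left) and for atorvastatin on the diet over the diet (right); dotted lines mark 2-fold. Asl lies apart from probe sets of like signal on both sides, at -2.0 and 1.42, and Arg1 lies at -1.06 and 0.63.

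The chow arrays share a feed and give a measure of background. Between the 2 chow arrays 0 of 5 member probe sets were past 2-fold, where 4.63% of 13639 were, and the members' median was 0.17. Arg1 had 0.68 and Cps1 0.48, Asl 0.059, and the Otc probe sets 0.17 and -0.13. With quantile normalization Arg1 had 0.033 and Cps1 -0.21 between the chow arrays, so the Cps1 ratio changed sign. Between the diet arrays at 10 weeks and 1 week, 1 of 5 was past 2-fold, where 10.2% of 13629 were: Asl was 4.34-fold lower at 10 weeks (-2.12). All 8 hepatocyte markers were higher at 10 weeks in that pair, with a median of 0.56, and their part in the ratio was not tested. Arg1 had -0.039, Cps1 0.0021 and the Otc probe sets 0.032 and -0.13. The chow and the diet pairs also differ in feeding time and in the age of the mice. In the diet pair this is time on the atherogenic diet, so that pair is not a measure of background.

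The genes around the cycle were read from lists, each gene by its brightest probe set. Over all genes 6.65% were past 2-fold for the diet at 10 weeks, 2.30% for the diet at 1 week, 4.28% for atorvastatin against the diet, and 5.51% for atorvastatin against chow. Between the diet times 8.45% were past 2-fold, and between the chow arrays 4.39%. Of 9 measured transporters, cofactors and activators, 1 was higher and 0 lower on the diet at 10 weeks, with a median log2 ratio of 0.28, beside 0.05 over all genes. The 1 was Car5a, the mitochondrial carbonic anhydrase that supplies bicarbonate to Cps1, at 1.06 (0.67 against the 1-week chow array). The transporter gene Slc7a2 had -0.48 in its brightest probe set, with -0.34 and -1.63 in the others. The last of these fell from 484.7 on chow to 157.1 on the diet, close to the floor. Nags makes N-acetylglutamate, the activator of Cps1. Its signals were 1568.5 and 1127.6 on chow and diet at 1 week, and 1271.8, 1583.9 and 1628.6 on chow, diet and diet with atorvastatin at 10 weeks. They were lowest on the diet at 1 week and spanned less than 2-fold.

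The mitochondrial carriers of the cycle differed from each other. Slc25a15, the ornithine carrier, had 6770.4 and 9897.4 at 1 week and 6141.9, 3757.4 and 4524.2 at 10 weeks, lowest on the same array as Asl. Its log2 ratio was -0.71 for diet against chow at 10 weeks, and -0.83 in its other probe set. Between the diet times it was -1.40, but -0.36 in the other probe set. Slc25a13, the carrier that exports aspartate for argininosuccinate synthesis, had 2201.1 and 2494.1 at 1 week and 2267.6, 3158.6 and 2785.9 at 10 weeks, highest on the 10-week diet array. Its diet ratio at 10 weeks was 0.48.

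Among 10 measured genes that use ornithine or arginine outside the cycle, 0 were higher and 1 lower on the diet at 10 weeks (median 0.13). The 1 was Oat, ornithine aminotransferase, which is known from hepatocytes around the central vein. Its signals were 9323.0 and 12848.6 at 1 week and 15823.2, 6796.0 and 10666.0 at 10 weeks, with a log2 ratio of -1.22 against chow at 10 weeks and -0.46 against chow at 1 week. Arg2, the mitochondrial arginase, was above the floor only on the 10-week diet array, at 179.1, with 134.6 on chow at 10 weeks. Its other probe set, at 2.3 to 50.8, lay below the floor on every array.

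Of 14 measured genes of ammonia and glutamate handling, 0 were higher and 1 lower (median -0.37). The 1 was Glul, glutamine synthetase, which clears ammonia downstream of the urea cycle. Glul had 4082.2 and 7699.1 at 1 week and 8635.3, 3470.2 and 4060.3 at 10 weeks. Its log2 ratio was -1.32 against chow at 10 weeks and -0.23 against chow at 1 week, and its other probe set gave -0.53 and -0.12. Glul and Oat, like Arg1, were thus highest on the 10-week chow array. With atorvastatin against chow, 2 of the 14 genes were lower, Glul (-1.09, and -0.0001 in its other probe set) and the amino acid transporter gene Slc38a2 (-1.03). Fh1, which takes up the fumarate that Asl releases, had -0.82 for the diet at 10 weeks, and the aminotransferase gene Got1 had -0.89. Neither was past 2-fold, and both were picked with their values known, outside the naming rule. In that comparison with chow at 10 weeks, 10 of the 14 genes had ratios below 0 and 4 above it. Another aminotransferase gene, Got2, was among the 4, at 0.33. So was Mdh1, also named outside the rule, at 0.29 in its brightest probe set. Other probe sets of Mdh1 gave -1.46, past 2-fold lower, and -0.68. For atorvastatin against the diet these Mdh1 probe sets gave 0.14, 1.26 and 0.10, in the same order.

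In amino acid breakdown 0 of 29 measured genes were higher and 2 lower on the diet at 10 weeks, where 6.65% of all genes were past 2-fold. Their median was -0.19. These counts use the brightest probe sets. The other probe set of Uroc1 had 2.01 in this comparison, -1.94 for atorvastatin against the diet and -1.06 at 1 week. Cth, the lyase that makes cysteine, had signals of 11485.6 and 9449.9 at 1 week and 10636.3, 4579.7 and 7942.4 at 10 weeks. Its order at 10 weeks was that of Asl, with log2 ratios of -1.22 against chow at 10 weeks and -1.33 against chow at 1 week. Aass, which starts lysine breakdown, had 6108.2 and 6328.8 at 1 week and 6583.7, 2872.4 and 3396.6 at 10 weeks. It was low on both 10-week diet arrays. Its log2 ratios for the diet alone were -1.20 against chow at 10 weeks and -1.09 against chow at 1 week. On the atorvastatin array they were -0.95 and -0.85, inside 2-fold. Cth and Aass were thus past 2-fold on the 10-week diet alone against either chow array. The share of all genes past 2-fold against chow at 1 week was not counted. With atorvastatin against the diet 1 of 29 was past 2-fold, Csad of taurine synthesis (1.48). Against chow Pcca of propionate breakdown was higher (1.10) and the tyrosine aminotransferase gene Tat lower (-1.04). At 1 week 0 of 30 were past 2-fold.

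Of 14 transcription factors and receptors linked to urea cycle transcription, 0 were higher and 1 lower on the diet at 10 weeks (median -0.30 against chow at 10 weeks and 0.14 against chow at 1 week). The 1 was Sp1, at -1.07, and at -0.51 against chow at 1 week; with atorvastatin against chow it was again the 1 lower, at -1.02. Cebpa, a hepatocyte factor that activates urea cycle genes, had 4317.3 and 6794.6 at 1 week and 3979.3, 6026.2 and 5611.8 at 10 weeks, so the 3 diet arrays were above both chow arrays. Its diet ratios were 0.60 at 10 weeks and 0.65 at 1 week, inside 2-fold. Hnf4a, another hepatocyte factor, had -0.30 at 10 weeks with -0.70 to 0.19 in its other probe sets. Nr3c1, the glucocorticoid receptor gene, had 0.55, with 1.16 and 0.75 in its other probe sets.

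**Figure D4:**
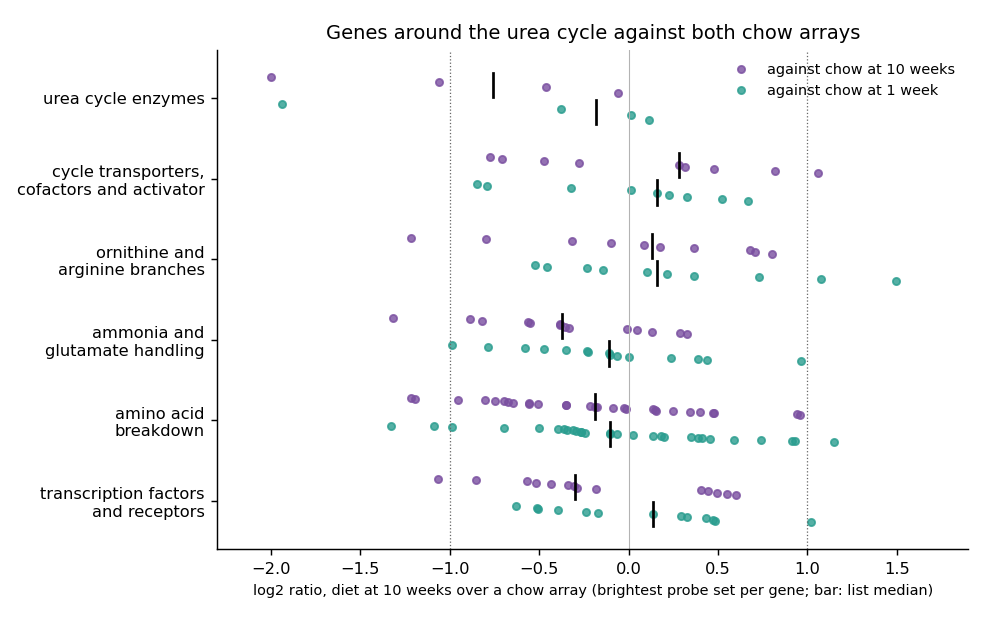
Log2 ratio of the 10-week diet array over the 10-week chow array (purple) and over the 1-week chow array (green) for each measured gene of 6 lists, by its brightest probe set (horizontal axis); vertical bars are list medians and dotted lines mark 2-fold. Asl is the leftmost point of the urea cycle row under both references, at -2.0 and -1.94, while Arg1 moves from -1.06 to -0.38.

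Position in the liver lobule was read from 2 marker lists. Of 7 measured periportal markers, the zone of the urea cycle enzymes, 1 was past 2-fold lower on the diet at 10 weeks, Arg1 itself. Without Arg1 the median was -0.34, and -0.31 against chow at 1 week. Cyp2f2, a periportal cytochrome, had -0.18 and Pck1, the gluconeogenic enzyme, -0.98. Of 9 measured pericentral markers 3 were lower, Glul, Oat and Lgr5 (-1.01), with a median of -0.66, and -0.26 against chow at 1 week, where none was past 2-fold. Against chow at 10 weeks the atorvastatin array had 1 of 7 periportal markers lower, Pck1 (-1.02), and 1 of 9 pericentral markers, Glul. Against the diet it had 0 past 2-fold in both lists, with medians of -0.04 and 0.44. Arg1 is also a marker of alternatively activated macrophages. Of the other markers of that state, Chil3 and Mgl2 were below the floor on all 5 arrays, Retnla reached at most 163.9, and Mrc1 ran from 1032.9 to 1385.5.

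Genes with the most similar profiles were sought for the members that spanned 2-fold, Asl and Arg1. Likeness was the root mean square distance between log2 profiles over the 5 arrays, each centred on its own mean, among 6834 genes above the floor on all arrays. Nearest to Asl were Grn, the progranulin gene, at a distance of 0.127, the acyl-CoA thioesterase gene Acot1 (0.147) and Egr1, an immediate early transcription factor (0.176). Grn had 13720.4 and 13949.2 at 1 week and 12982.5, 4083.4 and 9891.5 at 10 weeks, with the diet lowest at 10 weeks and atorvastatin between diet and chow. Its other 2 probe sets had the same lowest array with smaller ratios of diet to chow, -0.53 and -0.73 against -1.67. Acot1 had a diet ratio of -2.04 at 10 weeks and Egr1 -1.87.

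Nearest to Arg1 were ND5 (0.054), a mitochondrially encoded subunit gene of the respiratory chain, the glycine N-methyltransferase gene Gnmt (0.063) and the kinase gene Pak2 (0.069). Gnmt had 24520.5 and 18607.9 at 1 week and 40099.5, 20733.2 and 29800.7 at 10 weeks. Like Arg1 it was highest on chow at 10 weeks and higher with atorvastatin than on the diet alone. With 5 arrays as the only points, many genes can lie near any profile, so these names describe the arrays.

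**Figure D5:**
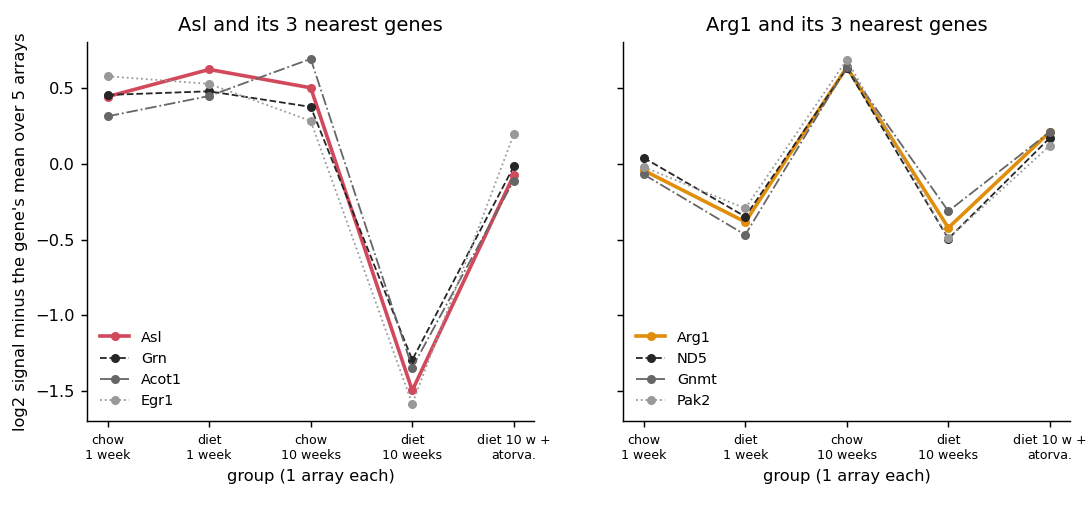
Log2 signal minus the gene's own mean over the 5 arrays (vertical axis) by group (horizontal axis, 1 array each) for Asl (left) and Arg1 (right), each with its 3 nearest genes; lines join values of 1 gene. Asl, Grn, Acot1 and Egr1 are lowest on the 10-week diet array, and Arg1, ND5, Gnmt and Pak2 are highest on the 10-week chow array.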

How the data were processed

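The authors deposited 1 signal intensity per probe set and array, computed with MAS5 per the submitters' processing notes, from RNA of pooled livers, per the labels' protocols. The labels do not state how the arrays were scaled. The deposited 2% trimmed mean was 500.2 on every array. Each array was rescaled to the common trimmed mean (a change of at most 0.00258%), given the floor of 138.8 and put on the log2 scale. Of 22690 probe sets 64 are controls, 691 have several symbols and 1555 have none in the platform annotation; these were left out. Genes in lists were read by their brightest probe set, and those past 2-fold were named, up to 4 per list and comparison, with 10 preset genes, of which Gls2 has no probe set of its own here. The members, lists and rules were chosen with earlier results of these data known. The ratio calculation was tested on simulated data with known fold changes. The alternatives were the values without rescaling, cyclic loess (limma 3.58.1) or quantile normalization, a floor at percentile 20 or 60, a pseudocount equal to the floor, 1.5-fold and 3-fold rules, 1 value per gene, leaving out x and s probe sets, and other chow references. Ratios relative to the brightest 1% of probe sets, and chow at 1 week as reference for atorvastatin, were added after seeing the data. Computations used Python 3.11.15 and pandas 2.3.3.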

Additional observations from a re-analysis of the deposited data

Results flagged for a closer look

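Asl had a log2 ratio for diet over chow of -2.0 at 10 weeks and of 0.18 at 1 week. The 1-week ratio was smaller than 0.432, the robust SD of the chow pair's log2 ratios, so its sign carries little weight. The difference was not tested, since each side is 1 array.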

How the results depend on the processing

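No paired analysis was possible because each group is 1 array, and for the same reason no array could be left out within a group. For the diet against chow at 10 weeks the count of member probe sets past 2-fold was 2; it was 1 with quantile normalization, cyclic loess, the 1-week chow array or the mean of both chow arrays as the reference, the brightest 1% as zero point (added after seeing the data), or the 3-fold rule, and that 1 was Asl. The median of -0.46 became -0.001 with the 1-week chow array, -0.090 with quantile normalization, -0.22 with both chow arrays, -0.23 with cyclic loess or the brightest 1% as zero point, -0.26 with the floor at percentile 20 and -0.76 with 1 value per gene. For atorvastatin against the diet the count of 1 became 2 at 1.5-fold and 0 at 3-fold. Between the chow arrays the count of 0 became 1 at 1.5-fold. Apart from the first of these medians, the others lie within 0.432 of -0.46, the robust SD of the chow pair's log2 ratios. This is a spread of single probe sets, so even a median of -0.090 counts as within it. With these medians, 130 comparisons of counts and medians with an alternative stayed within that spread or within 1.5 times the count, and 10 moved. Some alternatives, such as the values without rescaling, could hardly change a result. With quantile normalization the chow pair's ratio moved from 0.68 to 0.033 for Arg1 and from 0.48 to -0.21 for Cps1. Asl kept its direction under every alternative for the diet at 10 weeks (-2.0 to -1.77), atorvastatin against the diet (1.31 to 1.42) and diet at 10 weeks against 1 week (-2.37 to -2.07). Leaving out x and s probe sets removed no member. Signal over background limits the third Otc probe set, which lay below the floor on all arrays.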

Other observations

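Some genes near the urea cycle differed most between the feeding times. Uroc1, urocanase of histidine breakdown, had signals of 4707.5 and 3667.5 on chow and diet at 1 week, and 11101.2, 10432.2 and 9617.3 on chow, diet and diet with atorvastatin at 10 weeks. All 3 arrays of the longer time lay above both arrays of the shorter one. Its other probe set did not share this order: it gave 983.8 and 472.2 at 1 week and 464.4, 1872.5 and 488.7 at 10 weeks. Gamt, which makes creatine from a product of arginine, had 1010.8 and 1423.1 at 1 week and 2660.9, 2135.6 and 2054.9 at 10 weeks. Its log2 ratio was 1.40 between the chow arrays and -0.32 between diet and chow at 10 weeks. Onecut1, a liver transcription factor, had 85.2 and 139.1 at 1 week, close to or below the floor, and 344.6, 281.8 and 260.4 at 10 weeks. Of 8 hepatocyte markers 3 were past 2-fold higher between the chow arrays as well, Serpina1c (1.16), Alb (1.07) and Cyp2e1 (1.03), and so was Glul, at 1.08, with 0.41 in its other probe set. The 10-week chow array ran high at the bright end, where the median log2 ratio of the brightest 1% in this pair was 0.38, and its part in these ratios was not tested. Time on the feed and the age of the mice cannot be told apart here.

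Gpt2, an alanine aminotransferase, was highest on the diet at 1 week in all 3 of its probe sets and lowest on the diet at 10 weeks. Its brightest probe set had 3147.9 and 4629.2 at 1 week and 2334.5, 1822.2 and 2252.0 at 10 weeks, a log2 ratio of -1.35 between the diet times, with -1.70 and -1.62 in the others. Also lower on the diet at 10 weeks than at 1 week were Cdh1 (-1.40), Glul (-1.15, and -0.25 in its other probe set), Aass (-1.14), Sp1 (-1.07) and Cth (-1.04). Cyp7a1, which controls the rate of bile acid production, had -1.05 on the diet at 1 week, with -2.18 in its other probe set. By brightest probe sets it was the only gene of the 8 lists around the urea cycle past 2-fold there. A dimmer probe set of Hnf4a (-1.31) and that of Uroc1 (-1.06) were also past 2-fold, while their brightest had 0.08 and -0.36.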
